A study of Mus musculus with 6 samples.

Results

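The transcripts described are the unspliced intergenic entries of a table of long non-coding RNA (lncRNA) transcripts measured in mouse left ventricle. An entry was taken when its counts summed to at least 60 over the 6 libraries, when its interval overlapped no interval of the gene table deposited beside it on either strand, and when its length equalled its genomic span, so that it holds no intron. The rule kept 2573 of 43234 transcripts. The members were thus chosen by their counts summed over all libraries, so levels are given as a description. The contrast between the groups was not used.

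Total RNA came from the left ventricle of wild-type (WT) C57BL/6 mice, an inbred laboratory strain. The animals were male and, by the labels, 8 weeks old. 3 libraries carry the label TAC, for transverse aortic constriction, surgery that ties a ligature around the aortic arch and raises the pressure the ventricle works against. The other 3 carry the label Sham, for the same operation with no ligature. Tissue of both groups was collected after 6 weeks. The labels do not state whether every library is a different animal, and the p-values therefore cover the spread among libraries, which may be technical. In bulk tissue, fewer cells of a type and less RNA per cell cannot be told apart.

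Long non-coding RNAs are transcripts without a recognised protein-coding frame, and those between genes are catalogued by assembling reads that fall outside annotated genes. Such a catalogue also takes in abundant small nuclear and cytoplasmic RNAs made by RNA polymerase III, among them 7SL, the RNA scaffold of the signal recognition particle that brings ribosomes to the endoplasmic reticulum, and 7SK, which holds the elongation factor P-TEFb in an inactive complex. An unspliced entry has no splice junction of its own, so reads alone do not show whether it is a separate transcript or belongs to the RNA of a neighbouring gene.

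The label intergenic holds against the deposited gene table and only in part against RefSeq (GRCm38.p6). Of the 2573 transcripts, 1160 (45.1%) overlapped the interval of a RefSeq gene, and 477 of these overlapped the RefSeq interval of their own nearest gene. A protein-coding RefSeq gene was overlapped by 727, a RefSeq lncRNA gene by 355 and a RefSeq pseudogene by 120. The remaining 1413 lay outside every RefSeq gene interval. The promoter window of a RefSeq gene, from 250 bases before its start to 50 after, was overlapped by 96, and a miRNA hairpin by 3.

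Sequences of 5 such overlaps, taken from RefSeq (GRCm38.p6), show what lies under these entries. They were chosen after their values were seen, as windows overlapped by transcripts with a small unadjusted p and 1 miRNA hairpin. In the promoter windows capitals mark the bases inside the lncRNA entry, and in the hairpin they mark the mature miRNA. The Bcl6 window, which belongs to a transcriptional repressor gene, lies at chr16:23988803-23989102 on the minus strand. NONMMUT026006.2, 3379 bases long, takes in its outermost 28 bases and overlaps the RefSeq lncRNA gene Gm31527. The Gm51959 window, of a predicted lncRNA gene, lies at chr12:110986868-110987167 on the plus strand (NONMMUT015943.2). The Gm52006 window, of a predicted protein-coding gene, lies at chr12:80117370-80117669 on the minus strand (NONMMUT014806.2), and that of Gm51895, a predicted lncRNA gene, at chr11:57558277-57558576 on the minus strand (NONMMUT083713.1). The Mir8091 hairpin lies at chr19:41588651-41588789 on the plus strand, wholly inside NONMMUT105525.1.
Bcl6: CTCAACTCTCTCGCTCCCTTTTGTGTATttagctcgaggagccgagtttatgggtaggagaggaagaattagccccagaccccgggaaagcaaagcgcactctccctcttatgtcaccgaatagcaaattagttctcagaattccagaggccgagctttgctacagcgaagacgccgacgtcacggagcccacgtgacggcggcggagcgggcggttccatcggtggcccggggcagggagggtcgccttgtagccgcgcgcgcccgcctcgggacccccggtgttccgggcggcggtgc
Gm51959: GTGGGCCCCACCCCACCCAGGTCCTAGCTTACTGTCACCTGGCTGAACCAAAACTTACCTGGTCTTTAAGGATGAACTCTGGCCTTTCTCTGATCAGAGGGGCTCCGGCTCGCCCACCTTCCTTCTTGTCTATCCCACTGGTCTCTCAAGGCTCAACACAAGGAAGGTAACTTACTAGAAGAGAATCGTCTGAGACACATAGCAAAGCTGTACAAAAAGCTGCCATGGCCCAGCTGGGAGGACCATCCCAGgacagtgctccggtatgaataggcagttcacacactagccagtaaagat
Gm52006: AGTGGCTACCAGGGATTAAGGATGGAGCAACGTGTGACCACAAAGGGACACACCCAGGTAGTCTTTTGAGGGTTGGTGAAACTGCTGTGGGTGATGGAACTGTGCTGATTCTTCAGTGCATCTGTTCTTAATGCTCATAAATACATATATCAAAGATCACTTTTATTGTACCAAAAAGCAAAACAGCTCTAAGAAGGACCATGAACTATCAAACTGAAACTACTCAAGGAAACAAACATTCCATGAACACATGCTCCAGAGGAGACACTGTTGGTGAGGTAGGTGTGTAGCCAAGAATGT
Gm51895: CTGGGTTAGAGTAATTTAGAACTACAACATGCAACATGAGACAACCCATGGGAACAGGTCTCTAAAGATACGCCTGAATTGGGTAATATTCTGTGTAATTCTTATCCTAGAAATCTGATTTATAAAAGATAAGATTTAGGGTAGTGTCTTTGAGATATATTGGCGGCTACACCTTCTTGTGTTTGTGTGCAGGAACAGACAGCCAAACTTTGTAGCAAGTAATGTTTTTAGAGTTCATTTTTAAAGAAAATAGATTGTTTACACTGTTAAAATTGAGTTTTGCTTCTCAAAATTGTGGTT
Mir8091: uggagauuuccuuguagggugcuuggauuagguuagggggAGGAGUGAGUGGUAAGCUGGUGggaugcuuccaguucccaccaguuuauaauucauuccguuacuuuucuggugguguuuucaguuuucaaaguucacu

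The Bcl6 window has 62.7% G and C and 31 CpG pairs, against medians of 52.7% and 7 over 32851 RefSeq promoter windows of the same length. The Gm51895 window has 34.3% G and C and 2 CpG pairs. Of the 4 windows, only that of Gm51895 holds the letters TATAAA or CCAAT on either strand, and it holds both. Over all windows 13.6% hold TATAAA and 37.4% hold CCAAT. A match describes these letters alone.

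NONMMUT026006.2 (chr16:23989075-23992453), which begins 223 bases before the start of Bcl6, had 2.08, 3.11 and 5.62 scaled FPKM in TAC 1, 2 and 3 and 1.67, 0.894 and 1.16 in Sham 1, 2 and 3. Scaled FPKM here is FPKM recomputed from the counts with the TMM-scaled library size, TMM being edgeR's scaling between libraries. All of the TAC libraries lay above all of the Sham libraries, by 1.54 on the log2 scale (SE 0.41, adjusted p = 0.242 in edgeR's quasi-likelihood test). Log2 differences are given throughout as labelled TAC minus labelled Sham. Bcl6 itself stood at 17.0 to 28.8 CPM over the 6 libraries and differed by -0.14 (adjusted p = 0.716). CPM here are counts divided by the TMM-scaled library size, with no division by length.

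NONMMUT015943.2, over the Gm51959 window, had 1.71, 1.34 and 4.13 scaled FPKM in the TAC libraries and 0.667, 0.690 and 0.682 in the Sham libraries (log2 difference 1.81, SE 0.46, adjusted p = 0.234). The library labelled TAC 3 was the highest, and without it the log2 difference was 1.15. NONMMUT014806.2, over the Gm52006 window, had 1.5, 1.36 and 1.75 against 0.898, 1.04 and 0.966 (log2 difference 0.67, adjusted p = 0.239). NONMMUT083713.1, over the Gm51895 window, went the other way at a low level, with 6, 5 and 8 counts in the TAC libraries and 15, 24 and 14 in the Sham libraries (log2 difference -1.46, adjusted p = 0.215). NONMMUT105525.1, which holds the Mir8091 hairpin and lies inside the RefSeq interval of the corepressor gene Lcor, had 2.80, 2.46 and 1.98 scaled FPKM against 3.56, 4.34 and 3.63 (log2 difference -0.67, adjusted p = 0.260). Its counts describe the entry of 1658 bases and not the mature miRNA. For none of these 5 did the groups overlap, and none passed the adjusted threshold of 0.05 in edgeR. DESeq2, an alternative test on the same counts, put NONMMUT026006.2 past it (adjusted p = 0.0280). The 5 were chosen after their values were seen. Over all lncRNA transcripts tested, 10.3% lay apart with TAC higher and 10.3% with Sham higher.

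Most of the transcripts were scarce. Their counts summed over 6 libraries had a median of 131, from 60 to 195429. The mean deposited FPKM (counts scaled by transcript length and library total) had a median of 0.599, 1820 of the 2573 (70.7%) lay below 1 and 86 lay above 10. Their lengths ran from 208 to 18194 bases with a median of 1893. NONMMUT058739.2 and NONMMUT013835.2 lay just inside the count rule with 60 counts each, at a mean FPKM of 0.422 and 0.128. NONMMUT006528.2 and NONMMUT008079.2 lay just outside with 59 counts each, at 0.184 and 0.427. A further 10684 unspliced intergenic entries fell below the minimum. The 662 spliced intergenic entries with at least 60 counts had similar middles, a median length of 2176.5 bases and a median FPKM of 0.625.

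The 3 longest entries also carried few reads for their length. NONMMUT131917.1 (chr8:129193673-129211866, 18194 bases) stood at 0.351 to 0.682 scaled FPKM over the 6 libraries, NONMMUT135511.1 (chr9:117770898-117788222, 17325 bases) at 0.0302 to 0.149, and NONMMUT096489.1 (chr15:98963824-98979756, 15933 bases) at 0.230 to 0.475. In each of these 3 the groups overlapped, with log2 differences of 0.17, 0.42 and -0.49 and adjusted p from 0.492 to 0.842. The sign for NONMMUT135511.1 turned to -0.01 when the library labelled Sham 2 was left out.

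The highest levels belonged to polymerase III RNAs. NONMMUT014453.2 (chr12:69159295-69159591, 297 bases) and NONMMUT014466.2 (chr12:69361185-69361481, 297 bases) lie on Rn7s1 and Rn7s2, the RefSeq genes of 7SL RNA, and NONMMUT070124.2 (chr9:78175302-78175633, 332 bases) lies on Rn7sk, the gene of 7SK RNA. Together these 3 entries took 27.7% to 30.9% of all counts of the 2573 transcripts in a library. Rn7s1 and Rn7s2 are near-identical copies. How shared reads were counted is not stated for these tables, so the division between them is uncertain. The ratio of their counts was 1.98 to 2.12 in the 6 libraries.

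The Rn7s1 entry had 5013, 4741 and 4143 scaled FPKM in TAC 1, 2 and 3 and 5165, 6009 and 5119 in Sham 1, 2 and 3. Every Sham library lay above every TAC library, by 1.17-fold (log2 difference -0.23, SE 0.13), which did not pass (adjusted p = 0.540). The Rn7s2 entry had 2437, 2289 and 2016 against 2610, 2835 and 2417, with overlapping groups (log2 difference -0.22, adjusted p = 0.547). The Rn7sk entry had 3381, 3799 and 4073 against 3676, 3950 and 3678 (log2 difference -0.01, SE 0.12, adjusted p = 0.991). The groups overlapped for it, and the sign of a difference this small depended on the scaling.

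**Figure D1:**
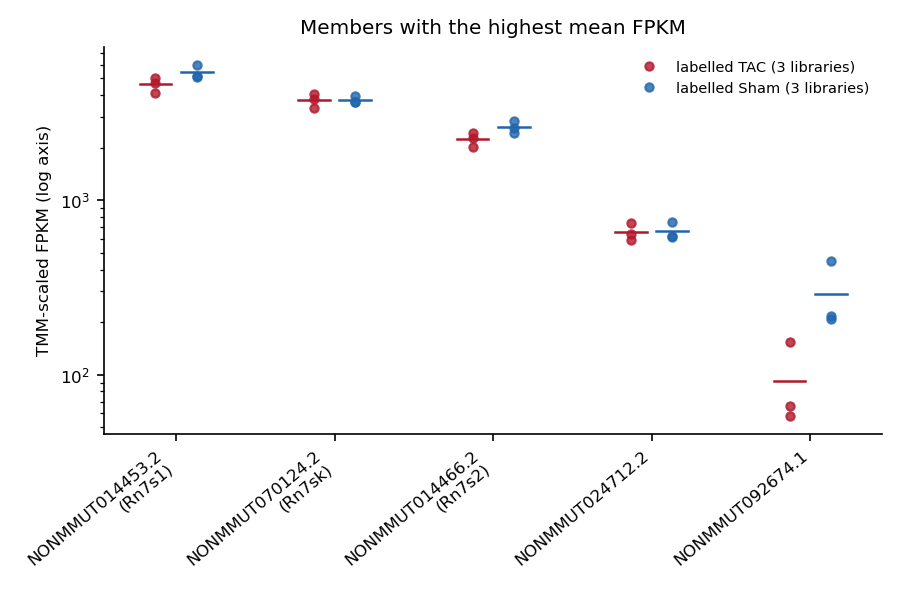
TMM-scaled FPKM (log axis) of the 5 unspliced intergenic transcripts with the highest mean FPKM, each point 1 library and each bar the mean of 3. Groups overlap for 3 of them, and NONMMUT092674.1 shows the widest gap, with 57.8 to 154 in the TAC libraries and 208 to 447 in the Sham libraries.

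The 2 next highest entries have no RefSeq gene under them. NONMMUT024712.2 (chr15:93234363-93234700), 5042 bases beyond the end of the xylosyltransferase gene Gxylt1, had 591, 638 and 738 scaled FPKM against 627, 747 and 614, and its groups overlapped (log2 difference -0.02, adjusted p = 0.981). NONMMUT092674.1 (chr14:32118000-32118942), 14798 bases beyond the end of Oxnad1, had 154, 65.8 and 57.8 in the TAC libraries against 208, 447 and 217 in the Sham libraries. The groups did not overlap, and the level was 3.15-fold higher in the Sham libraries (log2 difference -1.65, SE 0.47, adjusted p = 0.260). DESeq2 put it past the threshold (adjusted p = 0.0147). Without the library labelled Sham 2 the log2 difference was -1.21, and without the library labelled TAC 1 it was -2.24.

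The entry beside it, NONMMUT020278.2 (chr14:32115643-32117499), named after its values were seen, followed the same order of libraries. It had 46.7, 23.1 and 19.3 scaled FPKM in the TAC libraries and 69.0, 148 and 76.1 in the Sham libraries (log2 difference -1.72, SE 0.44, adjusted p = 0.234). It passed in DESeq2 (adjusted p = 0.00421). The 2 entries lie close together in 1 run, so they may share a source. Oxnad1 itself had a log2 difference of 0.40 (adjusted p = 0.165).

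Several other high entries lie within RefSeq genes and were picked for their level. NONMMUT065779.2 inside Palld, the gene of the actin-bundling protein palladin, had a mean of 104 FPKM. NONMMUT034211.2, 202 bases beyond the deposited end of the transcription factor gene Klf9, had 63.3, and NONMMUT030791.2 inside Slc8a1, the gene of the cardiac sodium-calcium exchanger, had 60.3. Their log2 differences were -0.10, 0.04 and -0.15, and the groups overlapped in each of them.

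Entries on copies of other genes were among the abundant ones too. NONMMUT057365.2 on Rpl34-ps1, named as a copy of a ribosomal protein gene and listed by RefSeq as protein-coding, had a mean of 138 FPKM, and NONMMUT014295.2 on the RefSeq pseudogene Cox6c2 had 79.4. NONMMUT020489.2 (chr14:43121772-43122101) on the RefSeq pseudogene Cdv3-ps had 27.2, 23.5 and 19.9 scaled FPKM in the TAC libraries and 50.8, 61.4 and 47.6 in the Sham libraries. Its groups lay well apart (log2 difference -1.18, SE 0.19, edgeR adjusted p = 0.130), and it passed in DESeq2 (adjusted p = 0.000354). Reads of such a copy may be shared with its parent gene, so the source of these counts is uncertain.

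The transcripts as a class took a steady share of the lncRNA counts. The share was 13.6%, 13.2% and 12.7% in TAC 1, 2 and 3 and 13.6%, 14.3% and 13.7% in Sham 1, 2 and 3. TAC 1 lay above the lowest Sham library, so the groups overlapped. Without the 7SL and 7SK entries the shares were 10.2%, 9.75% and 9.31% against 9.97%, 10.3% and 10.1%, and the groups overlapped again.

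**Figure D2:**
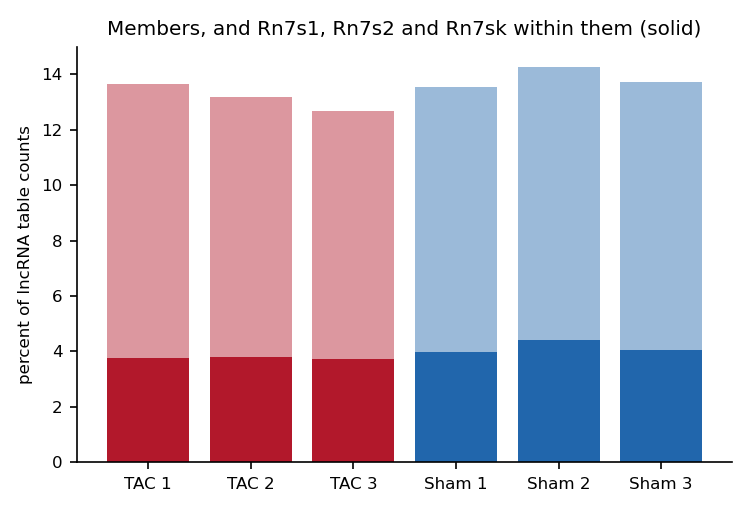
Percent of each library's lncRNA counts taken by the 2573 unspliced intergenic transcripts (whole bar) and by the Rn7s1, Rn7s2 and Rn7sk entries among them (solid part). Whole bars run from 12.7% to 14.3%, with the TAC and Sham libraries overlapping.

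Gene counts summed to 17399510 to 28401399 and lncRNA counts to 1547100 to 2397057 per library. Over the members tested, the first principal component of log2(scaled CPM + 1) held 34.3% of the variance with the TAC libraries on one side and the Sham libraries on the other. On the second (24.0%) TAC 3 stood apart from the other 5. Nppa, the atrial natriuretic peptide gene, and Acta1, the skeletal actin gene of the fetal heart programme, are known to be raised by pressure overload and were both higher in the libraries labelled Sham (log2 differences -3.70 and -3.23, edgeR adjusted p = 0.0222 and 0.0448). The direction of these genes goes against the labels, so directions below are those of the libraries as labelled. Summed atrial markers stood at 641 to 1896 CPM in the Sham libraries and 72.4 to 139 in the TAC libraries, with 4 of 4 markers lower in TAC and 1 past the threshold. Nppa is 1 of these 4 and makes up most of the sum, at 595 to 1894 CPM against 64.3 to 95.1. The atrial sum therefore largely repeats the Nppa result. Summed fibroblast markers stood at 1364 to 1840 against 753 to 845 CPM (6 of 6 lower in TAC, 1 past) and macrophage markers at 196 to 211 against 87.1 to 163 (5 of 5 lower, 0 past). Cardiomyocyte markers stood at 31469 to 44149 against 49450 to 57292 CPM (7 of 8 higher in TAC, 0 past), and no marker in these 4 lists was at 0. The part of these markers in the results below was not tested, and values without TAC 3 or another library are given where they decide a call.

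No unspliced intergenic transcript passed edgeR's test between the libraries labelled TAC and Sham. Of the 2573, 2472 had counts enough to be tested and 101 had not. Over all 16035 lncRNA transcripts tested, 17 (0.106%) had an edgeR adjusted p under 0.05, and 0 of them were among the 2472, where the smallest adjusted p was 0.0554. At an unadjusted p under 0.05 there were 313 members (12.7%), against 12.6% of all transcripts tested, so the share was that of the table. DESeq2 put 36 of 2222 members with an adjusted p past the threshold (1.62%), 19 higher in TAC and 17 higher in Sham, against 1.5% of the table. The limma test on log2(FPKM + 0.1) put 3 past it (0.121%), against 0.162% of the table.

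By direction, of the 313, 186 were higher in TAC (6.72% of the table was) and 127 higher in Sham (5.84% of the table was). Without TMM scaling this split was 240 and 94, and with limma on log2(FPKM + 0.1) it was 268 and 106. The table's own split under these settings is not given, so no excess of the members is read from these counts. The groups did not overlap in 284 members higher in TAC (11.5%) and in 236 higher in Sham (9.55%), against 10.3% of the table in the TAC direction and 10.3% in the Sham direction. The median log2 difference of the members tested was 0.03 and that of all transcripts tested 0.0048, and without TMM scaling these medians were 0.14 and 0.12. With limma on log2(FPKM + 0.1) they were 0.11 and 0.098, so the whole table moved with the members. From the 5th to the 95th percentile the members' differences ran from -0.93 to 1.26, and 308 of 2472 differed by over 2-fold. Over all transcripts tested these percentiles were -0.98 and 1.04, and 1625 of 16035 differed by over 2-fold.

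**Figure D3:**
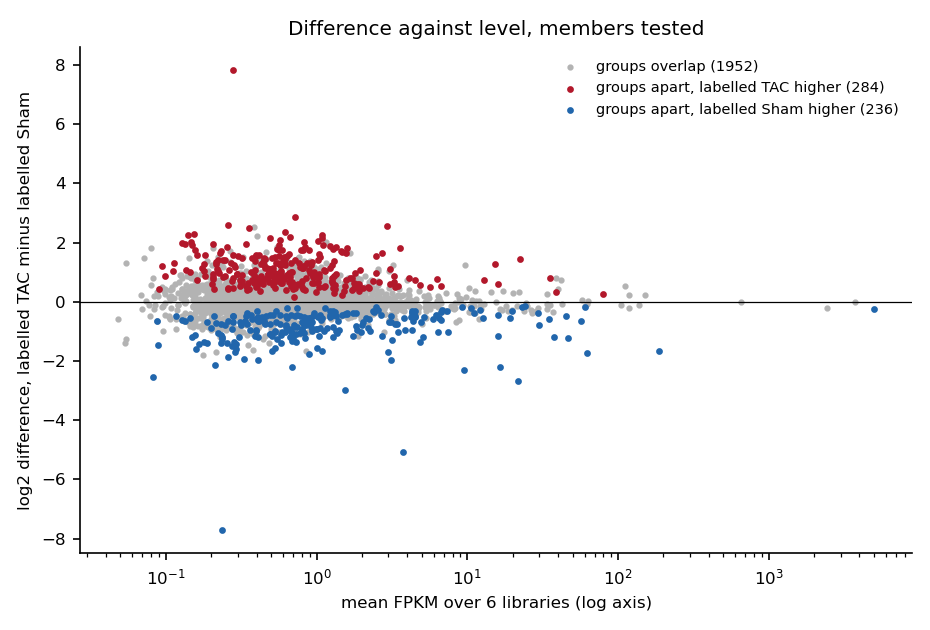
Log2 difference (labelled TAC minus labelled Sham) against mean FPKM (log axis) for the 2472 members tested, 1 point each. Red marks the 284 whose TAC libraries all lie above the Sham libraries and blue the 236 the other way, and the points run from -7.72 to 7.83.

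Medians by position are given as a description. Members outside every RefSeq gene had a median log2 difference of 0.08 and members overlapping one -0.01. In RefSeq lncRNA genes the median was 0.22, with 41 of 335 tested at an unadjusted p under 0.05 (12.2%, beside 12.6% of the table), 32 of them higher in TAC. On RefSeq pseudogenes it was -0.09, with 22 of 119 at that p (18.5%, beside the same 12.6%), 17 of them higher in Sham. The 539 members tested that lie before the start of their nearest gene had a median of 0.14, and the 949 beyond its end -0.01. Spliced intergenic entries had a median of 0.22, and 103 of 613 (16.8%) reached an unadjusted p under 0.05, with 1 past the adjusted threshold. None of these differences between classes was tested.

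The smallest adjusted p belonged to NONMMUT106571.1 (chr2:4944480-4949988), 5750 bases beyond the end of Phyh, the peroxisomal phytanoyl-CoA hydroxylase gene. This entry and the next 2 were chosen after their values were seen. It had 105, 97 and 115 counts in TAC 1, 2 and 3 and 38, 42 and 30 in Sham 1, 2 and 3, or 0.859, 0.837 and 0.951 against 0.348, 0.284 and 0.301 scaled FPKM. The groups were narrow and far apart, at 2.83-fold (log2 difference 1.5, SE 0.18, adjusted p = 0.0554). With each library left out in turn the log2 difference ran from 1.43 to 1.58, and DESeq2 put it past the threshold (adjusted p = 0.000599). Phyh itself had a log2 difference of 0.37 (adjusted p = 0.132).

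The next 2 were read in 1 group alone. NONMMUT126673.1 (chr7:36682072-36684491), within the predicted protein-coding gene Gm36722, had 30, 32 and 23 counts in the TAC libraries and 0 in each Sham library, at least 28.1-fold higher when the Sham group is set at 3 counts in all (adjusted p = 0.0774). NONMMUT107694.1 (chr2:109057089-109059514), with no RefSeq gene under it, had 0 in each TAC library and 17, 44 and 20 in the Sham libraries, at least 27.2-fold higher there by the same floor (adjusted p = 0.124). Both passed in DESeq2 (adjusted p = 4.4e-05 and 9.5e-05) and in limma on log2(FPKM + 0.1). These were the only members tested with a whole group at 0, and such limits cover counting error only. Each met the count minimum through the other group alone, so its p-values are given as a description and not as support. Several entries below met the minimum through 1 group in the same way. Among them are NONMMUT091400.1, NONMMUT058728.2, NONMMUT095726.1, NONMMUT018937.2, NONMMUT092429.1, NONMMUT135187.1 and most entries beside Rb1cc1. Their p-values are likewise a description and not support.

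Among members at a mean FPKM of at least 0.5 whose groups did not overlap, the largest difference was that of NONMMUT091400.1 (chr13:51634327-51635714), 9518 bases before the start of Cks2, a cell cycle kinase subunit gene. It had 10, 10 and 0 counts in the TAC libraries and 146, 404 and 162 in the Sham libraries. The Sham libraries stood 33.5-fold higher (log2 difference -5.06, SE 0.79), and the adjusted p was 0.130. It passed in DESeq2 (adjusted p = 2.3e-14) and in edgeR without the library labelled TAC 3 (adjusted p = 0.0418). It met the count minimum through the Sham libraries alone, so these p-values are not support.

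NONMMUT058728.2 (chr6:122530153-122530703) lies 863 bases from Mfap5, the gene of a microfibril protein of the matrix. It had 0.245, 0.517 and 0.331 scaled FPKM in the TAC libraries and 1.10, 6.09 and 1.40 in the Sham libraries. Sham 2 was far above the others, and the log2 difference of -2.97 (SE 0.80, adjusted p = 0.242) became -1.76 without it. DESeq2 on all libraries put it past the threshold (adjusted p = 0.0434). It too met the count minimum through the Sham libraries alone. Mfap5 itself was higher in the Sham libraries and passed the test over genes (log2 difference -2.27, SE 0.39, adjusted p = 0.0448), with 53.6, 142 and 70.2 CPM there against 15.2, 25.6 and 14.3 in the TAC libraries.

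NONMMUT119553.1 (chr5:135626344-135627376), 5242 bases before the start of Rhbdd2, had 8.68, 4.65 and 4.63 scaled FPKM against 13.3, 64.0 and 38.2 (log2 difference -2.69, SE 0.58, adjusted p = 0.195). Sham 1 lay nearer to the TAC libraries than to the other Sham libraries. The adjacent NONMMUT017649.2 and NONMMUT089908.1 (chr13:55184771-55188831 together, beyond the end of the receptor gene Fgfr4) had the same order among the Sham libraries, with Sham 2 the highest. The first had 8.23, 3.70 and 6.19 against 10.1, 46.9 and 26.8, and the second 4.65, 2.10 and 3.16 against 6.23, 26.9 and 15.5. Their log2 differences were -2.21 and -2.29, with edgeR adjusted p of 0.237 and 0.220. All 3 entries passed in DESeq2 (adjusted p = 4.4e-05 for NONMMUT119553.1, 0.00178 and 0.000767 for the pair). Rhbdd2 differed by -0.03 (adjusted p = 0.932), and Fgfr4 had too few counts to be tested.

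On the TAC side the largest difference was that of NONMMUT095726.1 (chr15:39179435-39181616), 16716 bases from the synaptic gene Rims2. The entry overlaps the RefSeq pseudogene Gm9522, so the source of its counts is uncertain, as for the copies above. It had 1.71, 0.566 and 1.46 scaled FPKM against 0.0463, 0.393 and 0.0253 (log2 difference 2.87, SE 0.85, adjusted p = 0.273). Sham 2 was nearest to the TAC libraries, and without it the difference was 5.0. NONMMUT018937.2 (chr13:102359269-102359979), far from any gene of the table, had 3.36, 4.54 and 6.73 against 1.63, 0.315 and 0.544 (log2 difference 2.57, SE 0.59, edgeR adjusted p = 0.209). Both passed in DESeq2 (adjusted p = 0.0436 and 0.00626). Both met the count minimum through the TAC libraries alone, so these calls are not support.

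NONMMUT092429.1 (chr14:13980027-13980675) lies inside the RefSeq interval of Atxn7, the ataxin gene of a histone acetyltransferase complex. It had 1.53, 1.68 and 2.04 scaled FPKM in the TAC libraries and 0.467, 0.345 and 0.255 in the Sham libraries, at 89 counts in all. The log2 difference was 2.27 (SE 0.36, edgeR adjusted p = 0.130), while limma on log2(FPKM + 0.1) and DESeq2 (adjusted p = 0.0451) put it past the threshold. The entry met the count minimum through the TAC libraries alone, so these calls are not support. It belongs to a run of 13 entries over chr14:13968291-13988133 whose log2 differences, its own included, had a median of 0.02 and ran from -1.15 to 2.27.

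**Figure D4:**
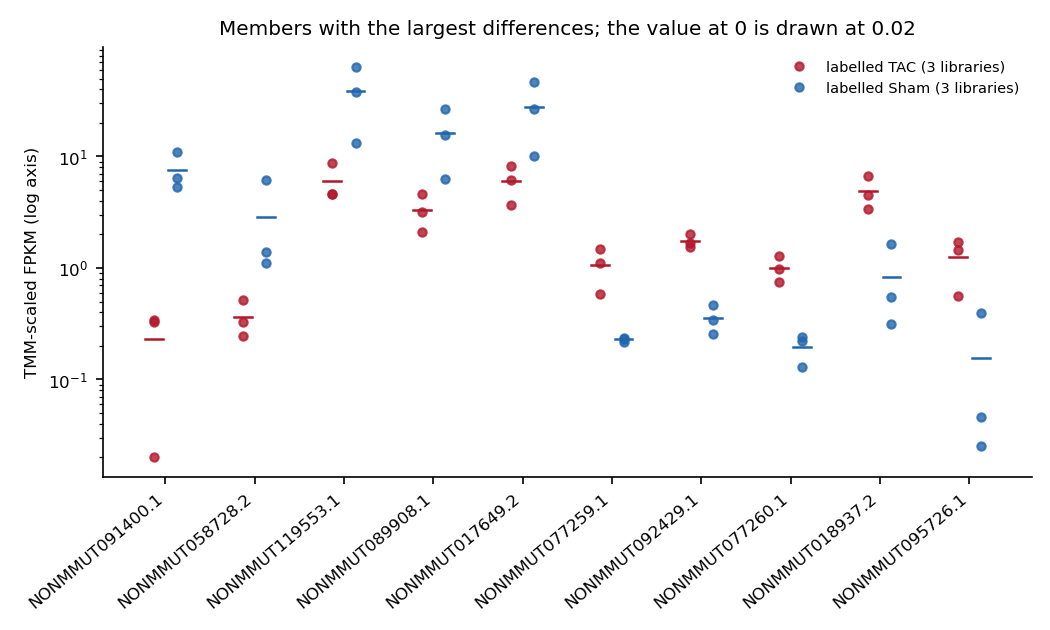
TMM-scaled FPKM (log axis, the single value at 0 drawn at 0.02) of the 5 largest differences in each direction, with each point 1 library and each bar the mean of 3. NONMMUT091400.1 shows 5.31 to 10.9 in the Sham libraries and at most 0.342 in the TAC libraries, and no pair of groups overlaps.

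Many entries lie close together. Joining members with gaps of at most 5 kb gave 1541 runs, of which 1083 held a single member and 458 held 1490 members between them, and 257 members overlapped another one. Neighbours in a run may come from the same RNA and are not independent. The longest run held 21 entries over chr12:34770675-34820783 within the RefSeq interval of Hdac9, a histone deacetylase gene. Its 20 tested members ran from -0.68 to 0.84 with a median log2 difference of -0.19, and 4 were positive. A run of 20 entries beside Pcdh1, a protocadherin gene, ran from -0.49 to 1.16 (median -0.07). Runs of 16 beyond Mir99ahg, a miRNA host gene, and beside Gm17203 had medians of -0.14 and 0.19. In these 4 runs the smallest adjusted p was 0.387.

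A group of entries that were all higher in every TAC library lies beside Rb1cc1, the gene of FIP200, a scaffold of the complex that starts autophagy. This group, and the other runs and loci described from here on, were chosen after their values were seen. The 13 members whose nearest gene is Rb1cc1 lie on its side of lower coordinates, over chr1:6173972-6205521, at 676 to 30129 bases from its interval (chr1:6206197-6276648). None overlaps a RefSeq gene. They form 2 runs, 4 overlap another one, and all 13 were tested. They hold 89 to 761 counts each and 2696 together.

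Summed over the 13, TAC 1, 2 and 3 had 763, 430 and 911 counts and Sham 1, 2 and 3 had 174, 273 and 145. With the TMM-scaled library size this was 34.4, 20.4 and 41.5 CPM against 8.78, 10.2 and 8.01. TAC 2 was the lowest of its group and still lay above every Sham library. In each of the 13 the groups did not overlap, with the TAC libraries higher. Over all lncRNA transcripts tested, 10.3% lay apart in that direction, and this group was chosen after its values were seen. Most of the 13 also needed their TAC counts to meet the count minimum, so the shared direction is a description only.

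The largest of them, NONMMUT077270.1 (chr1:6196344-6200927, 4584 bases), had 2.03, 1.21 and 2.59 scaled FPKM in the TAC libraries and 0.474, 0.806 and 0.410 in the Sham libraries (log2 difference 1.78, SE 0.37, adjusted p = 0.185). The nearest to the gene, NONMMUT077276.1, had 2.33, 1.75 and 2.58 against 0.644, 1.0 and 0.391 (log2 difference 1.68, SE 0.36, adjusted p = 0.193). The farthest, NONMMUT077259.1, had 1.12, 0.589 and 1.48 against 0.217, 0.231 and 0.237 (log2 difference 2.20, SE 0.39, adjusted p = 0.150). Its neighbour NONMMUT077260.1 had 0.984, 0.748 and 1.27 against 0.221, 0.130 and 0.242 (log2 difference 2.35, SE 0.41, adjusted p = 0.147). These 4 entries span the region.

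Over the 13 the log2 differences ran from 1.51 to 2.35 with a median of 1.86, unadjusted p from 0.000745 to 0.0339 and edgeR adjusted p from 0.147 to 0.351. DESeq2 put 5 of the 13 past the threshold, NONMMUT077270.1 (adjusted p = 0.00297), NONMMUT077259.1 (0.0105), NONMMUT077273.1 (0.0175), NONMMUT077276.1 (0.0302) and NONMMUT077260.1 (0.0451). Of the whole lncRNA table, DESeq2 put 1.5% past it. With a library left out in turn every one of the 13 stayed positive, the lowest value being 1.11 for NONMMUT077266.1 without TAC 3 (1.72 with it) and the highest 2.78 for NONMMUT077262.1. Rb1cc1 itself had 110, 124 and 105 CPM in the TAC libraries and 117, 113 and 111 in the Sham libraries, and its groups overlapped (log2 difference -0.0046, SE 0.10, adjusted p = 0.984). The unnamed gene 4732440D04Rik, which the gene table places inside the Rb1cc1 interval at chr1:6209866-6215293, had 23.5, 20.0 and 30.4 CPM against 11.8, 12.2 and 14.0. It was higher in TAC and passed the test over genes (log2 difference 0.96, SE 0.18, adjusted p = 0.0488).

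**Figure D5:**
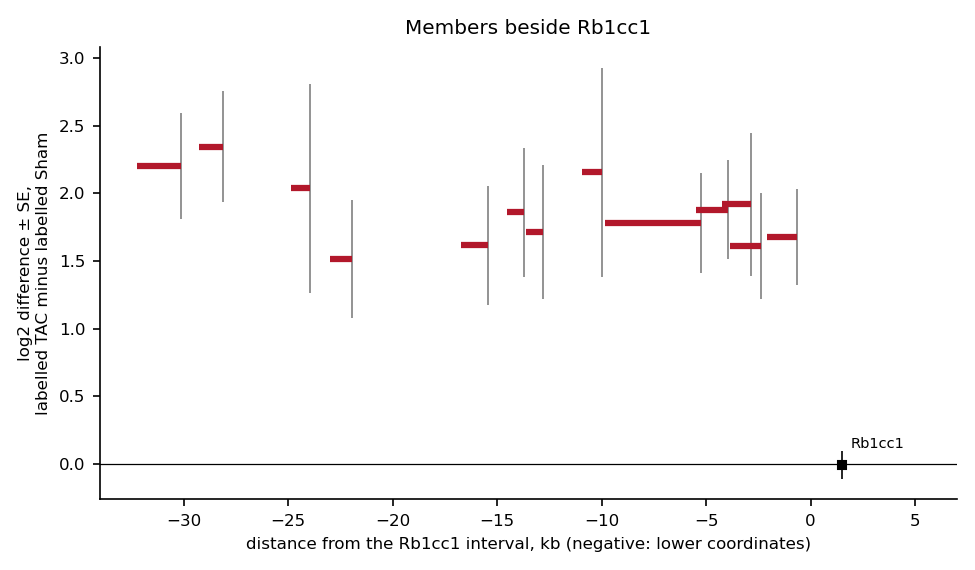
Log2 difference (labelled TAC minus labelled Sham) of the 13 members beside Rb1cc1 against their distance from its interval in kb, each horizontal bar 1 entry and each vertical line ± 1 SE drawn at the end nearer the gene. All 13 lie between 1.51 and 2.35, while Rb1cc1 itself (square) lies at -0.0046.

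Several other runs had differences of 1 sign. The 9 entries over chr4:108787197-108808914, between 3110021N24Rik and the transcription factor gene Btf3l4, had log2 differences from 0.39 to 1.96 with a median of 0.88, and in 7 of them the groups did not overlap. Their summed level was 11.2, 13.6 and 17.3 scaled CPM in the TAC libraries and 9.19, 6.27 and 5.64 in the Sham libraries. The 10 entries over chr15:40624653-40649934 beside Zfpm2, a heart-expressed cofactor gene of GATA factors, were also all positive (0.44 to 1.35), at 17.4, 17.4 and 11.3 against 12.4, 5.22 and 7.74. There TAC 3 lay below Sham 1, so the summed groups overlapped. The 5 entries over chr16:30906757-30918341 near Xxylt1 went the other way, with 4.55, 4.04 and 2.28 against 12.3, 5.93 and 7.02 and 4 of 4 tested members higher in every Sham library (-1.06 to -0.78). The smallest adjusted p in these 3 runs was 0.173. Over all lncRNA transcripts tested, 10.3% lay apart with TAC higher and 10.3% with Sham higher.

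A pair of abundant entries lies between Myh7, the gene of the slow beta-myosin heavy chain, and Ngdn. NONMMUT092968.1 (chr14:55001941-55005123), which begins 7307 bases before the start of Myh7 and overlaps the RefSeq gene Gm31251, had 2084, 2353 and 2214 counts in the TAC libraries and 1087, 796 and 518 in the Sham libraries, or 29.5, 35.1 and 31.7 against 17.2, 9.33 and 8.99 scaled FPKM. The groups did not overlap (2.71-fold, log2 difference 1.44, SE 0.28, adjusted p = 0.173). It passed in DESeq2 (adjusted p = 0.000354) and in edgeR without the library labelled Sham 1 (adjusted p = 0.0459). The next entry, NONMMUT092969.1 (chr14:55005211-55006299), had 19.1, 24.2 and 20.6 against 13.6, 6.65 and 6.14 (log2 difference 1.28, SE 0.33, edgeR adjusted p = 0.237, DESeq2 adjusted p = 0.0208).

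Myh7 itself varied widely within each group. Its level was 212, 65.7 and 6050 CPM in TAC 1, 2 and 3 and 1816, 6323 and 2072 CPM in Sham 1, 2 and 3, and TAC 3 lay far from the rest of its group (log2 difference -0.69, SE 1.37, adjusted p = 0.814). Myh6, the adult alpha-myosin gene beyond it, had 32774, 30796 and 25561 CPM against 23896, 13733 and 17131. Its groups did not overlap (log2 difference 0.70, SE 0.23, adjusted p = 0.152). Ngdn differed by -0.16 (adjusted p = 0.607).

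Distance to genes was short for many entries. The gap to the nearest interval of the gene table ran from 5 to 1087816 bases with a median of 7966, and 345 members lay within 1 kb, 479 at 1 to 5 kb, 645 at 5 to 10 kb, 812 at 10 to 50 kb and 292 farther. Of the 2573, 559 lay before the start of that gene and 987 beyond its end, and for 1027 no strand of the gene was found. The neighbours were 1365 different genes. Over the gene table, 217 of 15198 genes tested (1.43%) had an edgeR adjusted p under 0.05.

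Members nearest to genes that passed were few. 12 members tested lay nearest to 7 genes higher in Sham, and their log2 differences ran from -2.97 to 0.18 with a median of -0.39. 21 lay nearest to 5 genes higher in TAC, from -0.49 to 2.22 with a median of 0.57. Of these 21, 18 were positive and 3 negative. NONMMUT136381.1 and NONMMUT136384.1 beside Bhlhb9 were at -0.30 and -0.49, while the gene itself was at 1.54 (edgeR adjusted p = 0.0480). For the 1966 members beside a tested gene that did not pass, the median was 0.04. Gene and entry were measured in the same libraries, so the values are set side by side only, and no member of either set passed in edgeR. DESeq2 put NONMMUT058728.2 beside Mfap5 (adjusted p = 0.0434) and NONMMUT102885.1 beside 1010001N08Rik (adjusted p = 0.00898) past the threshold.

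The closest of the Sham set were the entry beside Mfap5 above and 2 others. NONMMUT065565.2, 987 bases from the deposited interval of Tenm3, a teneurin adhesion receptor gene, and overlapping the RefSeq interval of the same gene, had 0.353, 0.604 and 0.401 scaled FPKM in the TAC libraries and 0.938, 1.13 and 0.703 in the Sham libraries (log2 difference -1.03, SE 0.37, adjusted p = 0.329, gene -0.95, adjusted p = 0.0391). NONMMUT031428.2, 3528 bases from Colec12, a scavenger receptor gene, had 0.169, 0.446 and 0.471 against 0.664, 0.806 and 0.675 (log2 difference -0.98, adjusted p = 0.431, gene -0.74, adjusted p = 0.0391). In both the groups did not overlap, which held for 10.3% of all lncRNA transcripts tested in the Sham direction. Beside Ecm1, an extracellular matrix protein gene (-1.11, adjusted p = 0.0222), and Masp1, a complement protease gene (-1.13, adjusted p = 0.0396), the 7 entries ran from -0.66 to 0.18 and their groups overlapped.

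In the TAC set, 3 entries lay 29266 to 40452 bases from 1010001N08Rik, an uncharacterised gene (0.88, adjusted p = 0.0459), and in each the groups did not overlap. Over all lncRNA transcripts tested, 10.3% lay apart with TAC higher. NONMMUT102885.1, with 5835 counts, had 15.9, 14.7 and 17.1 scaled FPKM in the TAC libraries and 9.03, 8.81 and 10.6 in the Sham libraries (log2 difference 0.75, SE 0.15, adjusted p = 0.176). NONMMUT031481.2 had 5.31, 5.11 and 5.02 against 2.62, 3.14 and 3.01 (log2 difference 0.81, SE 0.17, adjusted p = 0.182). Both showed narrow spreads within each group.

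The 4 entries beside Paqr9, a membrane receptor gene of the progestin and adipoQ receptor family (0.69, adjusted p = 0.0421), differed between the TAC libraries. NONMMUT135187.1 had 68 and 60 counts in TAC 1 and TAC 2, 10 in TAC 3 and 9, 11 and 9 in the Sham libraries, so that TAC 3 lay with the Sham group (log2 difference 2.22, SE 0.68, adjusted p = 0.280). Without TAC 3 it passed in edgeR (log2 difference 2.69, adjusted p = 0.0273). Leaving out the TAC library that lay with the Sham group parts the groups by construction, so this p-value is not support. NONMMUT133325.1 had 0.970 and 0.860 scaled FPKM in TAC 1 and TAC 2, 0.189 in TAC 3 and 0.333 to 0.399 in the Sham libraries. In 3 of the 4 entries TAC 3 was the lowest of the 6 libraries and in the other it lay within the Sham range. Paqr9 itself had 113, 120 and 112 CPM in the TAC libraries and 62.1 to 76.5 in the Sham libraries. The 10 entries beside Gm37320 (0.87, adjusted p = 0.0329) ran from -0.03 to 2.01, and TAC 3 was the lowest TAC library in each of them. The value of 2.01 (SE 1.27) belongs to NONMMUT097245.1, with 0, 69 and 0 counts in Sham 1, 2 and 3 and overlapping groups. The next highest was 0.84.

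NONMMUT072001.2 (chrX:21026184-21028664), inside the RefSeq interval of the zinc finger gene Zfp182, showed 1 library of the TAC group with the Sham level. It had 3, 59 and 3 counts in TAC 1, 2 and 3 and 69, 86 and 68 in the Sham libraries (log2 difference -1.77, SE 0.99, adjusted p = 0.523). Without TAC 2 the difference was -4.61 and passed in edgeR (adjusted p = 0.00576). Leaving out the TAC library nearest to the Sham level widens the gap by construction, so this p-value is not support. Zfp182 itself differed by -0.17 (adjusted p = 0.5).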

How the data were processed

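The counts per gene and per lncRNA transcript are whole numbers deposited by the authors, and the FPKM values deposited by the authors divide them by length and library total. The length column deposited by the authors served for the intron rule. HISAT2 2.0.4, StringTie 1.3.0 and GRCm38 (mm10) are named in the submitters' processing notes, while their roles, the counting program, its strand setting, the annotation version and filters are not stated there or in the labels. Libraries were made from DNase-treated total RNA with a total RNA kit, per the labels' protocols.

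The members and the lists were chosen with earlier results of these data known. The whole lncRNA table was tested with edgeR 4.0.16 (quasi-likelihood, TMM, filterByExpr with a minimum count of 10, Benjamini-Hochberg adjustment, threshold 0.05) in R 4.3.3, with the library total implied by the deposited FPKM values as library size. Genes were tested alike, but with the summed gene counts of each library as library size. SEs are the absolute log2 difference over the square root of F. Alternatives were DESeq2 1.42.0, limma 3.58.1 on log2(FPKM + pseudocount), other scalings, filters and definitions, a replicate block and each library left out. The procedure was tested on simulated data. Members named without a remark are the 5 highest in mean FPKM, the 5 largest differences each way among those whose groups do not overlap and whose mean FPKM reached 0.5, the 3 longest, those at the count minimum and the longest runs. The tables give no strand, so sides and runs ignore the strand of the entry, although a strand-aware grouping had been planned. No genome sequence was used here. Within a group, counts of any pair of libraries differed by a chi-square of 4.37 to 8.85 per member, so no library was counted as a copy of another.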

Additional observations from a re-analysis of the deposited data

How the results depend on the processing

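The count of unspliced intergenic transcripts past an adjusted p of 0.05, 0 in edgeR, was 36 with DESeq2, 3 with limma on log2(FPKM + 0.1), 3 with limma on log2(FPKM + 1) and 0 with limma on log2(FPKM + 0.01), and 0 to 2 with each library left out (NONMMUT092968.1 without Sham 1, NONMMUT072001.2 without TAC 2, NONMMUT091400.1 and NONMMUT135187.1 without TAC 3). It stayed at 0 under the other scalings, filters, library sizes and definitions of members run, including members outside RefSeq genes, which was added after seeing the data. The replicate block also gave 0, with a smallest adjusted p of 0.373. Same-numbered libraries did not deviate together over the transcripts tested (correlations of -0.0269, -0.0731 and -0.00934). With so few libraries these values cannot show whether same-numbered libraries shared a batch.

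The median log2 difference, 0.0302, was 0.128 and 0.112 with limma on log2(FPKM + 0.01) and log2(FPKM + 0.1) and 0.140 without TMM scaling. With each library left out it ran from 0.00144 to 0.0894. Of 703 values of 44 named transcripts under alternatives, 14 turned sign, all in 3 transcripts with small differences. NONMMUT024712.2 was at 0.0956, 0.0956 and 0.0955 with limma, 0.103 without TMM, and 0.0741, 0.0526 and 0.00925 without Sham 2, TAC 1 and TAC 2, where leaving out single libraries gave -0.116 to 0.0741. NONMMUT070124.2 was at 0.101 with limma at each of 3 pseudocounts, 0.108 without TMM, and 0.0233 and 0.0614 without Sham 2 and TAC 1 (-0.0775 to 0.0614 over single libraries left out). NONMMUT135511.1 was at -0.0112 without Sham 2 (-0.0112 to 1.10 over single libraries left out). The cause was not tested. A median of 131 counts over 6 libraries limits the precision for most entries.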
